A study of Mus musculus with 69 samples.

Results

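The 6 genes described here are Cxcl1, Cxcl2, Cxcl3, Cxcl5, Cxcl15 and Cxcr2. The first 5 encode CXC chemokines through which the mouse lung calls neutrophils out of the blood. Cxcr2 encodes the receptor on the neutrophil for Cxcl1, Cxcl2, Cxcl3 and Cxcl5. Their probes were found through transcript identifiers matched to symbols in RefSeq, and they make up 6 of the 17639 genes tested. The RNA came from the whole lungs of 69 female C57BL/6 mice, 1 mouse per array, that were 5 to 7 weeks old on arrival and were acclimatised for 1 to 3 weeks. Each mouse received a single intratracheal instillation of titanium dioxide (TiO2) nanoparticles or of the vehicle alone, given as H2O in the sample titles and as water with 2% serum in the study design. The particles were NRCWE-001, which is unmodified and carries no charge, and NRCWE-002, which is modified and positively charged. Each was given at 18, 54 or 162 µg, and lungs were collected on day 1 or day 28. Each of the 14 groups of particle, dose and day held 5 mice, except the day 28 vehicle group, which held 4. The mouse RNA was labelled with Cy5 and hybridised against a commercial mouse reference RNA labelled with Cy3, so every level below is a log2 ratio of lung to reference. The ratios of different genes cannot be set against each other, and only differences between groups are compared. In whole lung, more cells of a type and more RNA per cell cannot be told apart.

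CXC chemokines are small secreted proteins that bind to G protein-coupled receptors and form gradients along which leukocytes migrate. Cxcl1, Cxcl2, Cxcl3 and Cxcl5 are induced in epithelium, macrophages and other cells by inflammatory signals such as interleukin 1, tumour necrosis factor and bacterial products, largely through the transcription factor NF-kB, and all act on CXCR2. Cxcl15, also called lungkine, is made by airway and alveolar epithelium and is present in the unchallenged mouse lung. CXCR2 is carried mainly by neutrophils, so its transcript in whole lung depends in part on how many of these cells the tissue holds.

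Cxcl1, Cxcl2, Cxcl3 and Cxcl15 lie close together on mouse chromosome 5 and Cxcr2 lies on chromosome 1. The 150 bases before the transcription start of Cxcl1, Cxcl2 and Cxcl3 are shown because the letters of an NF-kB site stand in each of them, and those of Cxcl15 because they do not. The sequences are from RefSeq, build GRCm38.p6, and the capitals mark the match.
Cxcl1, chr5:90891095-90891244, + strand: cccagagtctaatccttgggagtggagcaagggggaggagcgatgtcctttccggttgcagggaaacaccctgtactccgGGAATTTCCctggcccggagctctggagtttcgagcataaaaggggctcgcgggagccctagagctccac
Cxcl2, chr5:90903749-90903898, + strand: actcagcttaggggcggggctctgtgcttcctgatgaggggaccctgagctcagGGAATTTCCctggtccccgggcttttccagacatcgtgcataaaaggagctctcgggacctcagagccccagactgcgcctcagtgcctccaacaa
Cxcl3, chr5:90785951-90786100, + strand: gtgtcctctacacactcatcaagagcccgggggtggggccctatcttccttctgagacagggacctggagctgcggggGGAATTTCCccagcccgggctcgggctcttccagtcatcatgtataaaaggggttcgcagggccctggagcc
Cxcl15, chr5:90794384-90794533, + strand: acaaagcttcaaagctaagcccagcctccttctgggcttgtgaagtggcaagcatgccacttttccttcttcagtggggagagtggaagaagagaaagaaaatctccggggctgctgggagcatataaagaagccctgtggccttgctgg
The motif searched was GGANNTTCC, on both strands of the 250 bases before the start. Cxcl1 held it at bases -70 to -62, Cxcl2 at -96 to -88 and Cxcl3 at -72 to -64, counted back from the start. The matched letters were GGAATTTCC in all 3, and the motif was met on both strands there. Of all 32851 promoters of this length, 1178 (3.59%) held the motif. The promoters of Cxcl15 and Cxcr2 held no such letters, and Cxcl5 was not searched. TGANTCA, the letters of an AP-1 site, stood in no member and in 6.75% of all promoters. TTNCNNAA, those of a C/EBP site, stood in Cxcl2 alone among the members, from -236 to -229 on the minus strand, and in 36.8% of all promoters.

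Most of these transcripts were dim on the array. Cxcl1, Cxcl2, Cxcl3 and Cxcl5 were each read by 1 probe and Cxcl15 and Cxcr2 by 2 probes each, whose median was used. In the sample channel the Cxcl1 probe was well above background on 56 of 69 arrays, Cxcl5 on 35, Cxcl3 on 26 and Cxcl2 on 15. Both Cxcl15 probes, and 1 of the Cxcr2 probes, were well above background on all 69 arrays, and the second Cxcr2 probe was on 54. On the vehicle arrays of either day, neither Cxcl2, Cxcl3 nor Cxcl5 was well above background. For these genes the vehicle level is therefore a ceiling, and a fold against it is a lower bound. The lung markers Sftpc, Sftpa1, Scgb1a1 and Ager had median log2 ratios of 7.40, 5.97, 6.62 and 5.63 over the reference, so the tissue matched its label. The 7 arrays of 1 scan day stood apart, since 79.4% to 87.6% of their probes were well above background, against 60.8% to 79.6% on the other 62 arrays. No vehicle array and no array of 162 µg on day 1 was among them. No pair of arrays shared its values, and the mice are separate animals per the labels.

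**Figure D1:**
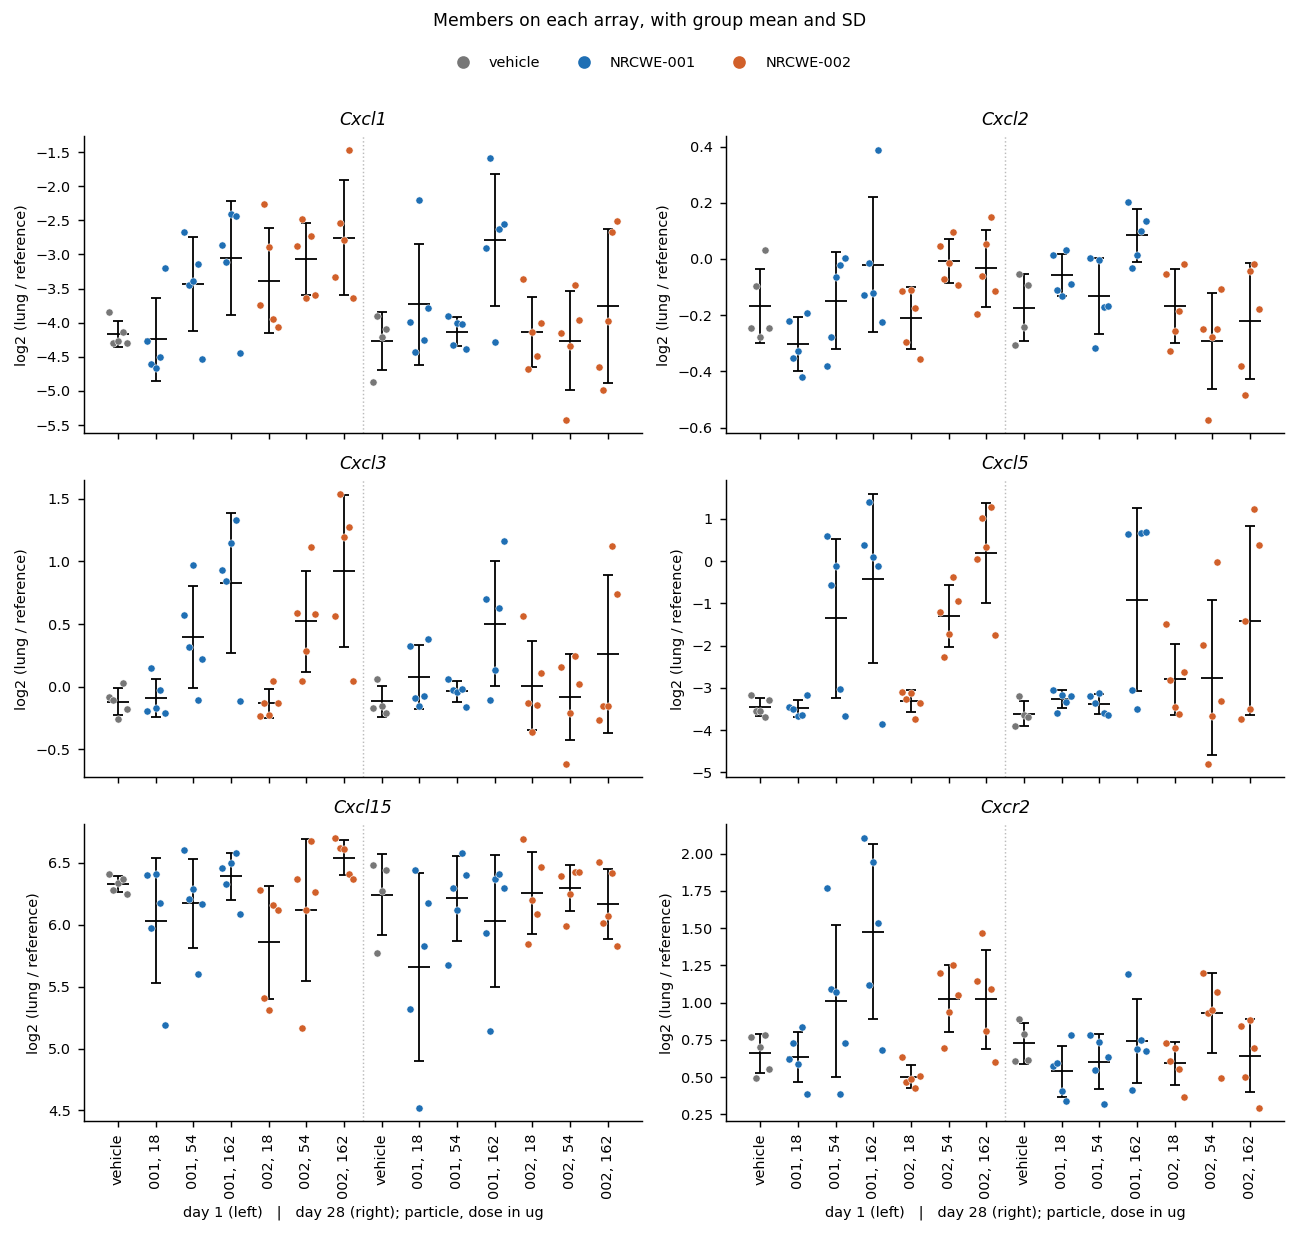
Log2 ratio of lung to reference RNA for each of the 6 genes on all 69 arrays, by particle, dose and day; each point is 1 mouse and each bar a group mean. Cxcl5 on day 1 lies between -3.70 and -3.18 in the vehicle mice and reaches 1.40 and 1.27 at 162 µg of NRCWE-001 and NRCWE-002, with 1 mouse at -3.85.

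On day 1, 162 µg of either particle raised members of this family. Cxcl5 and Cxcl3 rose after NRCWE-002, and Cxcl3 and Cxcr2 rose after NRCWE-001. Thus 2 of 6 members passed the test (adjusted p below 0.05) for each particle, against a share of 0.624% over all genes after NRCWE-001 and of 0.59% after NRCWE-002. All 6 members had a positive difference from vehicle for both particles, with a median of 0.88 and 0.70 on the log2 scale, while the median of all genes was -0.000902 and 0.00543. At 54 µg, 0 of 6 members passed for either particle, against 0.0% of all genes after NRCWE-001 and 0.113% after NRCWE-002. At 18 µg, 0 of 6 members and 0.0% of all genes passed for both particles. Arrays of several groups shared slides and scan days, and with these as blocks more genes passed in general. At 162 µg of NRCWE-001 on day 1, 4 of 6 members passed with slide as a fixed block, slide as a random block or scan day as a fixed block, against 4.11%, 3.5% and 4.07% of all genes. For 162 µg of NRCWE-002, 1, 3 and 4 members passed, against 1.96%, 2.83% and 4.0%. For 54 µg of NRCWE-002, 2, 2 and 1 passed, against 1.51%, 1.25% and 0.941%. Every comparison with vehicle on a given day shares the same vehicle arrays. When all doses of a particle were tested together against vehicle by an F-test, Cxcl3, Cxcl5 and Cxcr2 passed for NRCWE-001 on day 1 (adjusted p 0.0414, 0.0380 and 0.00969), against 0.879% of all genes. For NRCWE-002 on day 1, Cxcl3 and Cxcl5 passed (0.0114 and 0.0122), against 0.771% of all genes.

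Cxcl5, the chemokine first known as LIX and made chiefly by epithelium in the lung, had the widest range over the arrays. On day 1 its log2 ratio in the 5 vehicle mice was -3.18, -3.55, -3.55, -3.70 and -3.29. After 162 µg of NRCWE-002 it was 0.05, 1.02, 0.34, 1.27 and -1.75, so every exposed mouse lay above every vehicle mouse. The difference was 3.64 ± 0.80 on the log2 scale (SE, 95% interval 2.03 to 5.25, adjusted p = 0.0140). Leaving out replicate 2 or replicate 4 of this group raised the adjusted p to 0.0640 and 0.0711. In raw brightness the probe read 66.5 to 74.0 in the vehicle group, level with its local background, and 229 to 1890 after 162 µg of NRCWE-002. Against the ceiling set by the vehicle arrays this was at least 11.9-fold.

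After 162 µg of NRCWE-001 the Cxcl5 ratio was 0.39, 1.40, 0.10, -0.11 and -3.85. The first 4 mice lay far above the vehicle group and replicate 5 lay below all of it. The label and the dosing of this mouse were not tested, and values are given with and without it. The difference of 3.04 ± 0.80 (95% interval 1.43 to 4.65) did not pass the test over all genes (adjusted p = 0.0552). Without replicate 5 it was 3.90 with an adjusted p of 0.00162, and the difference also passed with slide as a fixed block (3.37, adjusted p = 0.00822), with slide as a random block (3.27, 0.00264) and with scan day as a block (3.31, 0.0143). The raw brightness ran from 65.0 to 1921 with a median of 843, at least 7.25-fold over the vehicle ceiling, and 4 of 5 arrays were well above background.

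At 54 µg on day 1 the Cxcl5 ratio was -1.20, -2.27, -1.72, -0.37 and -0.95 after NRCWE-002. All 5 mice lay above the vehicle range, and the group mean of brightness was at least 4.08-fold over the vehicle ceiling, but the difference of 2.15 did not pass (adjusted p = 0.525). It passed with slide as a fixed block (3.04, adjusted p = 0.0431) or a random block (2.78, 0.0335), and not with scan day as a block (3.01, 0.0894). After 54 µg of NRCWE-001 the ratio was 0.58, -0.57, -0.11, -3.03 and -3.66, with 3 mice near the values of the high dose and 2 close to vehicle. The array at -3.03, and that at -2.27 after NRCWE-002, were scanned on the day that stood apart. The difference for 54 µg of NRCWE-001 was 2.10 (adjusted p = 0.786). At 18 µg the ratio stayed between -3.67 and -3.17 for NRCWE-001 and between -3.74 and -3.11 for NRCWE-002, which overlapped the vehicle group.

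**Figure D2:**
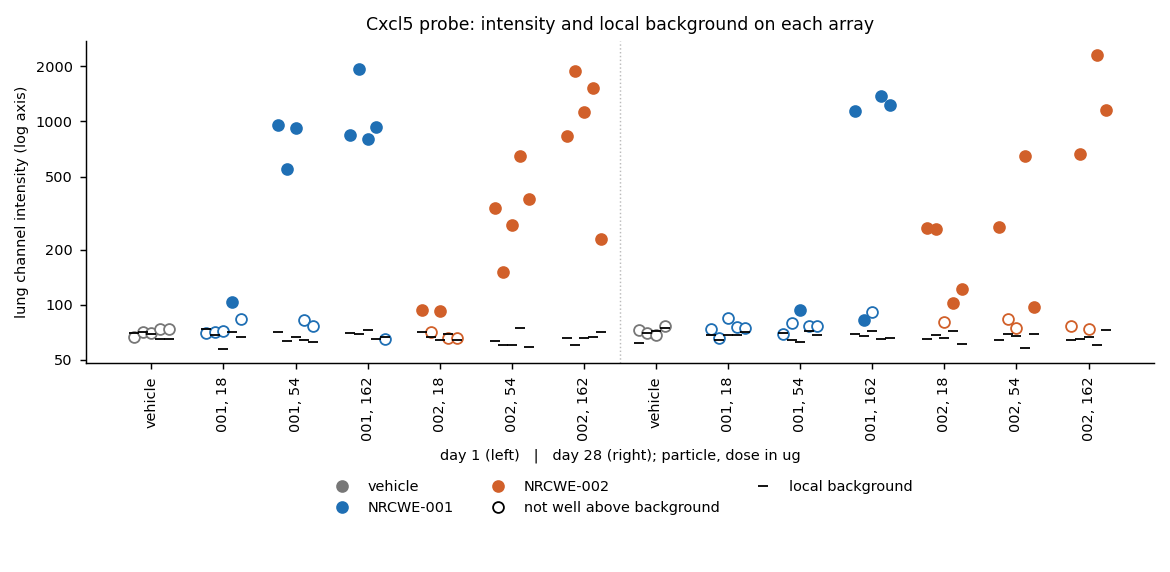
Raw sample-channel brightness of the Cxcl5 probe on each array, on a log axis; filled points are well above background and open points are not. Vehicle arrays of day 1 sit at 66.5 to 74.0, and the 162 µg arrays of day 1 reach 1921 for NRCWE-001 and 1890 for NRCWE-002.

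By day 28 the high dose still gave Cxcl5 values above vehicle in some mice and not in others. The vehicle ratios were -3.91, -3.20, -3.65 and -3.69. In the mice given 162 µg of NRCWE-001 they were 0.64, -3.06, -3.49, 0.65 and 0.68, and the brightness was 83.0 to 1374 with a median of 1134. In those given 162 µg of NRCWE-002 they were -3.75, -1.41, -3.50, 1.24 and 0.38. The differences of 2.70 ± 0.85 and 2.20 ± 0.85 did not pass (adjusted p = 0.290 and 0.556), although their 95% intervals, 0.99 to 4.41 and 0.49 to 3.91, lay above 0. The 4 low arrays of these groups, from -3.75 to -3.06, lay within or just above the vehicle range. That at -3.06 was scanned on the day that stood apart. At the lower doses of day 28 the highest values were -0.03 in 1 mouse of 54 µg NRCWE-002 and -1.50 in 1 mouse of 18 µg NRCWE-002, while all 10 mice of 18 and 54 µg NRCWE-001 lay between -3.64 and -3.04.

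Ranked by group mean, Cxcl5 was highest after 162 µg of NRCWE-002 on day 1 (0.19 ± 1.19, SD, n = 5). The groups next in order were 162 µg of NRCWE-001 on day 1 (-0.41 ± 2.01) and on day 28 (-0.91 ± 2.16), 54 µg of NRCWE-002 and NRCWE-001 on day 1 (-1.30 ± 0.73 and -1.36 ± 1.88) and 162 µg of NRCWE-002 on day 28 (-1.41 ± 2.24). Neighbours among these 6 groups overlapped and differed by less than their spread. The remaining groups had means between -3.61 and -2.76.

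Cxcl3, a ligand of CXCR2 close in sequence to Cxcl1 and Cxcl2, rose at the high dose of both particles on day 1. On day 1 its log2 ratio in the vehicle group was -0.08, -0.10, -0.25, 0.03 and -0.18. It was 0.93, 0.84, 1.14, 1.33 and -0.11 after 162 µg of NRCWE-001 and 0.57, 1.54, 1.19, 1.27 and 0.05 after 162 µg of NRCWE-002. The low value of the NRCWE-001 group came from replicate 5, the mouse that was also low for Cxcl5. The differences were 0.95 ± 0.24 (adjusted p = 0.0402) and 1.04 ± 0.24 (adjusted p = 0.0183). The raw brightness was 66.5 to 84.0 in the vehicle group, 67.5 to 203 after NRCWE-001 and 81.0 to 264.5 after NRCWE-002, with 4 of 5 arrays of each exposed group well above background.

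The Cxcl3 calls rested on few arrays. For NRCWE-001 the call was lost on removal of any vehicle array or of exposed replicate 1, 2, 3 or 4, which is 9 of the 10 arrays compared, with an adjusted p of 0.0726 to 0.299, and was kept without replicate 5 (1.18, adjusted p = 0.00135). It was also lost on normexp-corrected scanner signals (0.73, adjusted p = 0.0646). For NRCWE-002 it was lost without vehicle replicate 3 or exposed replicate 2, 3 or 4 (adjusted p 0.0544 to 0.1198) and narrowly with slide as a fixed block (0.93, adjusted p = 0.0546).

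At 54 µg on day 1 all 5 mice of NRCWE-002 and 4 of 5 of NRCWE-001 had Cxcl3 above the highest vehicle value, with differences of 0.64 (adjusted p = 0.524) and 0.51 (adjusted p = 0.946). At 18 µg the group means, -0.13 ± 0.11 for NRCWE-002 and -0.09 ± 0.15 for NRCWE-001, lay within the spread of the vehicle group (-0.12 ± 0.10). On day 28 the ratio was 0.70, -0.10, 0.13, 0.63 and 1.16 after 162 µg of NRCWE-001 and -0.27, -0.15, -0.15, 1.12 and 0.74 after 162 µg of NRCWE-002. The differences of 0.62 and 0.38 did not pass (adjusted p = 0.495 and 0.791). Other groups of day 28 had means between -0.08 and 0.08.

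Cxcl1, known as KC and often measured in mice in the place of human interleukin 8, moved in the same direction without passing the test. Its log2 ratio was -3.85, -4.30, -4.27, -4.14 and -4.30 in the day 1 vehicle group. After 162 µg of NRCWE-001 it was -2.86, -3.10, -2.40, -2.44 and -4.45, and after 162 µg of NRCWE-002 it was -3.33, -2.55, -2.79, -1.47 and -3.64. All 5 mice of NRCWE-002 and 4 of 5 of NRCWE-001 lay above the vehicle range, with replicate 5 of NRCWE-001 again the exception. The differences were 1.12 ± 0.44 (adjusted p = 0.415) and 1.42 ± 0.44 (adjusted p = 0.144). With slide as a fixed block the NRCWE-001 difference passed (1.22, adjusted p = 0.0327) and the NRCWE-002 difference did not (1.24, 0.0943). Both passed with slide as a random block (1.16, 0.0462, and 1.32, 0.0371) and with scan day as a fixed block (1.21, 0.0431, and 1.59, 0.0138).

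At 54 µg on day 1 Cxcl1 was above the vehicle range in 5 of 5 mice of NRCWE-002 (difference 1.11, adjusted p = 0.616) and in 4 of 5 of NRCWE-001. On day 28 it was -2.91, -1.59, -4.28, -2.63 and -2.56 after 162 µg of NRCWE-001, against -4.27 ± 0.42 in the vehicle group (SD, n = 4). The difference of 1.48 ± 0.47 did not pass (adjusted p = 0.292) and passed without replicate 3 (1.85, adjusted p = 0.0485). For NRCWE-002 the difference at this dose and day was 0.51 (adjusted p = 0.859).

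The Cxcl1 ratio also moved with the scan day on which the arrays stood apart. All 7 arrays of that day lay above the mean of the other arrays of their group, by 0.38 to 1.91 with a median of 1.31, and 6 lay above every other array of their group. The highest Cxcl1 value of 162 µg NRCWE-001 on day 28, replicate 2, was 1 of them. Cxcl15 moved the other way on these arrays, with 0 of 7 above the group mean and a median of -1.05. For Cxcl3 and Cxcr2 0 of 7 were above, with medians of -0.29 and -0.30, and for Cxcl2 3 of 7. For Cxcl5 4 of 7 were above, by 0.11 to 0.39, and all of these were arrays of 18 µg. The Cxcl5 arrays of higher doses lay below the others of their group. The differences were -2.68 at 162 µg NRCWE-001 on day 28, -2.09 at 54 µg NRCWE-001 on day 1 and -1.20 at 54 µg NRCWE-002 on day 1. Leaving these arrays out changed no count of members that passed. The part of scan day in the Cxcl1 and Cxcl5 values of the groups that hold these arrays was not tested beyond these fits.

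Cxcl2, or MIP-2, is induced in macrophages and neutrophils. Its probe was well above background on 15 of 69 arrays, and its ratio lay between -0.57 and 0.39. On day 1 the vehicle group was at -0.17 ± 0.13 (SD, n = 5), 162 µg of NRCWE-001 at -0.02 ± 0.24 and 162 µg of NRCWE-002 at -0.03 ± 0.14. The groups overlapped, and no dose of either particle passed against vehicle on either day. At 162 µg of NRCWE-001 on day 28, all 5 mice lay above all 4 vehicle mice, at a difference of 0.26 ± 0.10 (adjusted p = 0.449). Of these arrays 2 were well above background, against 0 of the 4 vehicle arrays.

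Cxcl15 was read well above background on all arrays and changed little. Its log2 ratio was 6.33 ± 0.06 in the day 1 vehicle group, 6.39 ± 0.19 after 162 µg of NRCWE-001 and 6.54 ± 0.14 after 162 µg of NRCWE-002. The differences were 0.06 (95% interval -0.44 to 0.56) and 0.21 (-0.29 to 0.71). Across all groups the means lay between 5.66 and 6.54. The lowest, 18 µg of NRCWE-001 on day 28, was 0.58 below its vehicle group (95% interval of the difference -1.12 to -0.05, adjusted p = 0.666). It held the lowest single array at 4.52, which was scanned on the day that stood apart. The 2 probes differed in size of change, with -0.93 and -0.24 in this group (adjusted p over all probes 0.794 and 0.937). At 18 µg of NRCWE-002 on day 1 they gave -0.98 and 0.03 (0.946 and 0.991).

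Cxcr2, the receptor, rose after the high dose of NRCWE-001 on day 1. Its log2 ratio was 0.77, 0.49, 0.70, 0.79 and 0.55 in the vehicle group and 2.11, 1.12, 1.95, 1.53 and 0.68 after 162 µg of NRCWE-001. The first 4 mice lay above the vehicle range and replicate 5 lay within it. The difference was 0.82 ± 0.18 (95% interval 0.46 to 1.17, adjusted p = 0.0115), or 1.76-fold. The call was lost without replicate 1, 3 or 4 (adjusted p = 0.105, 0.118 and 0.0741) and on the processed signals of the scanner software (1.14, adjusted p = 0.681). The brighter probe gave 1.12 ± 0.26 (adjusted p over all probes 0.0253) and the dimmer 0.51 ± 0.13 (0.0808).

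After 162 µg of NRCWE-002 the Cxcr2 ratio was 1.14, 1.47, 0.81, 1.09 and 0.60, with 4 of 5 mice above the vehicle range and a difference of 0.36 ± 0.18 (adjusted p = 0.522). It passed with scan day as a fixed block (0.58, adjusted p = 0.0284) and not with slide as a fixed (0.45, 0.154) or random block (0.43, 0.105). After 54 µg of NRCWE-002 on day 1 the group stood at 1.03 ± 0.22, with 4 of 5 above the vehicle range, and passed with slide as a fixed (0.60, adjusted p = 0.0300) or random block (0.54, 0.0372) and with scan day as a block (0.64, 0.0373). On day 28 both 162 µg groups were level with vehicle, at differences of 0.02 (95% interval -0.36 to 0.39) and -0.08 (-0.46 to 0.29).

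Counted without a test, Cxcl1, Cxcl3 and Cxcl5 lay above every vehicle array in every mouse of NRCWE-002 at 54 µg and at 162 µg on day 1. Of all genes, 1.8% and 3.0% did so at these doses. For 162 µg of NRCWE-001 on day 1, 0 of 6 members separated fully, against 1.7% of all genes, since replicate 5 lay at or below the vehicle range for Cxcl1, Cxcl3, Cxcl5 and Cxcr2. On day 28 only Cxcl2 separated for 162 µg of NRCWE-001, against 0.85% of all genes.

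Each slide carried 3 or 4 of these arrays, and 3 slides held both a day 1 vehicle array and a 162 µg NRCWE-001 array. Differences between the exposed and the vehicle array of a slide were taken for the members only, so no share of all genes stands beside them. Cxcl5 was higher by 3.56 to 4.96 log2 units, Cxcl1 by 0.98 to 1.86, Cxcl3 by 0.95 to 1.40 and Cxcr2 by 0.62 to 1.34. Cxcl2 and Cxcl15 differed by at most 0.16. Replicate 5 was on a slide with no vehicle array. The 2 slides with a 162 µg NRCWE-002 array gave 3.63 and 3.75 for Cxcl5, 0.54 and 1.37 for Cxcl3, 0.81 and 1.52 for Cxcl1 and 0.26 and 0.36 for Cxcr2. At 54 µg the within-slide difference of Cxcl5 was 2.98 to 3.76 for NRCWE-001 on 3 slides and 2.33 and 2.50 for NRCWE-002 on 2 slides. At 18 µg it was -0.27 to 0.59 over both particles.

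**Figure D3:**
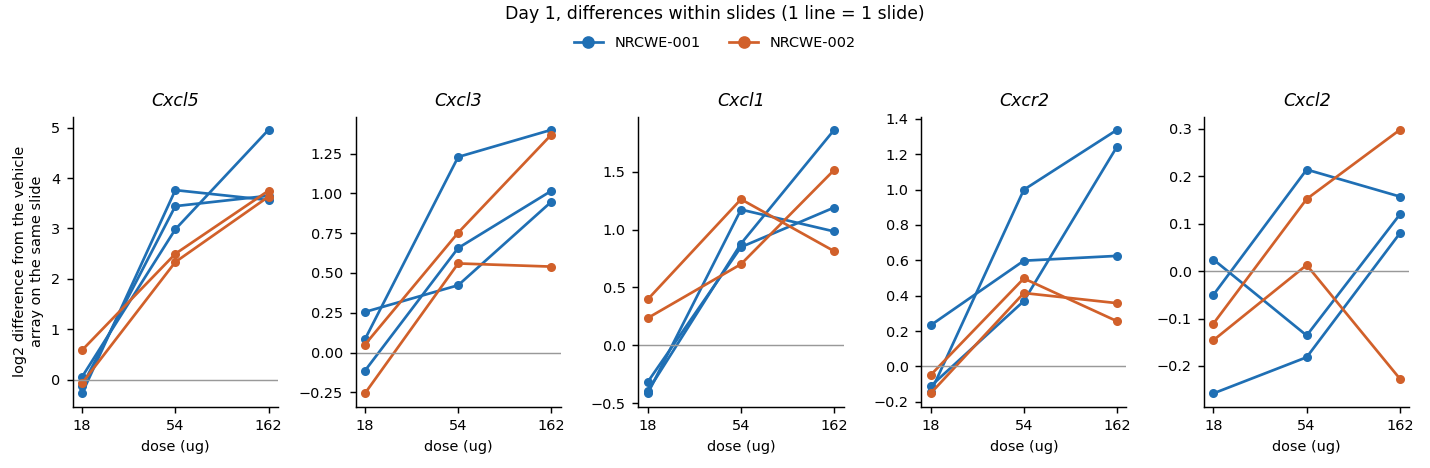
Difference in log2 ratio between an exposed array and the day 1 vehicle array on the same slide, for 5 of the genes against dose; each line is 1 slide. Cxcl5 lies between 3.56 and 4.96 at 162 µg of NRCWE-001 and between -0.27 and 0.59 at 18 µg of either particle.

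The 8 comparisons between particles set NRCWE-002, which is modified and positively charged, against the unmodified NRCWE-001 at matched doses and days. On each day most slides with exposed arrays held a single particle of that day, and at 162 µg on day 1 no slide held both. Particle and slide therefore can hardly be told apart in these comparisons. At 162 µg on day 1, 0 of 6 members and 0.0% of all genes passed the test of the difference. The difference, NRCWE-002 minus NRCWE-001, was 0.60 for Cxcl5 (95% interval -1.01 to 2.21), 0.10 for Cxcl3 (-0.38 to 0.57) and 0.30 for Cxcl1 (-0.59 to 1.18), so these intervals leave room for sizeable differences either way. For Cxcr2 it was -0.46 (-0.81 to -0.10), with an unadjusted p of 0.0130 in the limma fit and an adjusted p of 1.00. At 54 µg on day 1, where 0.0964% of all genes passed, and at 18 µg, where 0.00567% did, 0 members did. The Cxcl5 interval at 54 µg was -1.56 to 1.67.

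Averaged over the 3 doses, 0 of 6 members passed between the particles on day 1, against 0.108% of all genes. On day 28 Cxcl2 was lower after NRCWE-002, by 0.19 ± 0.05 (95% interval of the difference -0.30 to -0.09, adjusted p = 0.0206), when 6.73% of all genes passed. Since most slides of that day held a single particle, neither this difference nor that share can be told apart from slide. The groups averaged for NRCWE-001 stood at -0.06, -0.13 and 0.08 and those for NRCWE-002 at -0.17, -0.29 and -0.22, close to background throughout. The call was lost without replicate 2 of 54 µg or of 162 µg NRCWE-002 (adjusted p = 0.0539 and 0.0510). It was also lost with only the arrays of day 28, on processed or normexp-corrected scanner signals, and with slide or scan day as a block. Under a filter that asks for every array of a group to be well above background, Cxcl2 was not tested. At the single doses of day 28, 0 members passed, against 0.164% of all genes at 18 µg, 0.0283% at 54 µg and 0.0% at 162 µg. The largest of these differences for Cxcl1, at 162 µg, was -0.97 (-1.85 to -0.08, adjusted p = 0.534).

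On day 28, 0 of 6 members passed against vehicle at any dose. The shares of all genes that passed were 0.193%, 0.00567% and 0.051% at 18, 54 and 162 µg of NRCWE-001 and 0.0%, 0.0% and 0.00567% for NRCWE-002. In the F-tests over the doses of day 28, 0 members passed, against 0.686% of all genes after NRCWE-001 and 0.0% after NRCWE-002. Between the vehicle groups of the days, 0 members and 0.0% of all genes passed. When the 162 µg effect on day 28 was tested directly against that on day 1, 0 members and 0.0% of all genes passed for either particle. For Cxcl5 the day 28 effect minus the day 1 effect was -0.34 (95% interval -2.69 to 2.01) for NRCWE-001 and -1.43 (-3.78 to 0.91) for NRCWE-002. For Cxcr2 it was -0.80 (-1.32 to -0.28, unadjusted p = 0.00313 in the limma fit, adjusted p = 0.877) and -0.44 (-0.96 to 0.08). The Cxcl5 intervals hold a fall, no change and a rise of the effect between the days.

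The genes around this pathway were counted at 162 µg on day 1. Of the 4 tested genes for other CXCR2 ligands and related receptors, Ppbp, Pf4, Cxcr1 and Ackr1, 0 passed for either particle. Of 12 other CXC chemokines and receptors, 1 passed after NRCWE-002, Cxcl12 (0.67, adjusted p = 0.0349), which holds leukocytes in marrow and tissue, and 0 after NRCWE-001 (Cxcl12 0.58, adjusted p = 0.104).

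Upstream of the chemokines, Il1b and Cd14 rose for both particles, 2 of 19 upstream cytokines and receptors. Il1b, encoding interleukin 1 beta, rose by 1.76 ± 0.37 after NRCWE-001 and 1.78 ± 0.37 after NRCWE-002 (adjusted p = 0.00859 and 0.00854). Cd14, a co-receptor for bacterial lipopolysaccharide, rose by 1.31 and 1.56 (adjusted p = 0.0480 and 0.0107). Among 15 NF-kB subunits and inhibitors, Nfkbiz rose after NRCWE-001 (1.00, adjusted p = 0.00859; 0.64, 0.165 after NRCWE-002), and Nfkbia and Nfkbib rose after NRCWE-002 (0.67 and 0.32, adjusted p = 0.0483 and 0.0323). The median of this list was 0.41 and 0.47.

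Of the 5 CCR2-axis chemokines, which draw monocytes, 0 passed for either particle, although their median difference was 1.22 after NRCWE-001 and 1.44 after NRCWE-002. Of 9 macrophage CC chemokines, Ccl17 (1.80, adjusted p = 0.0330) and Ccl20 (0.94, adjusted p = 0.0336) rose after NRCWE-002 and 0 genes passed after NRCWE-001, where they stood at 1.46 and 0.57.

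Neutrophil markers were read beside Cxcr2 because the same cells carry both. Of 20 tested, 5 rose after NRCWE-001 and 2 after NRCWE-002, when 0.624% and 0.59% of all genes passed in either direction. The median difference was 0.56 and 0.47. The difference was positive for 15 and 14 of the 20 markers, and the others were not above vehicle. Clec4d, a C-type lectin receptor of myeloid cells, rose by 1.37 and 1.31 (adjusted p = 0.0246 and 0.0347). Trem1, a receptor that amplifies myeloid responses, was named outside the rule after its values were seen and rose by 0.50 and 0.53 (adjusted p = 0.0128 and 0.00852). Cd177, a neutrophil surface protein, Il1r2, a decoy receptor for interleukin 1, and Csf3r, the receptor for granulocyte colony-stimulating factor, rose after NRCWE-001 by 1.27, 1.25 and 0.81 (adjusted p = 0.0295, 0.00859 and 0.0212). After NRCWE-002 they stood at 1.08, 0.96 and 0.69 (0.0907, 0.0756 and 0.0719). The mean log2 ratio over these markers was 0.91 to 1.23 in the day 1 vehicle mice, 1.07 to 1.89 after 162 µg of NRCWE-001 and 1.21 to 1.67 after 162 µg of NRCWE-002. The lowest of the NRCWE-001 values was replicate 5, the mouse at vehicle level for Cxcl1, Cxcl3, Cxcl5 and Cxcr2. On day 28 it was 0.95 to 1.18 in vehicle mice, 0.73 to 1.59 after 162 µg of NRCWE-001 and 0.93 to 1.27 after 162 µg of NRCWE-002. The part of neutrophil number in the Cxcr2 difference was not tested.

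Markers of other cells were counted in the same way. Of 14 macrophage and monocyte markers, Ear1 and Siglecf, both of resident alveolar macrophages, fell by 1.38 and 1.00 after NRCWE-001 (adjusted p = 0.0390 and 0.0384). Siglecf also fell by 1.00 after NRCWE-002 (adjusted p = 0.0336), and Ear1 stood at -1.27 (0.0674). The list as a whole did not fall with them, and its other markers lay on both sides of vehicle. With Ear1 and Siglecf included, the list median was 0.001 after NRCWE-001 and 0.20 after NRCWE-002, and 7 and 8 of the 14 markers were above vehicle. Of 14 airway and alveolar epithelial markers, 8 endothelial markers and 9 lymphocyte markers, 0 passed, with list medians between -0.13 and 0.01. Of 8 heart muscle markers 0 passed, with medians of 0.52 and 0.72. Their mean level ranged from 0.36 to 2.78 in the day 1 vehicle mice, 0.18 to 3.28 after NRCWE-001 and 0.63 to 2.60 after NRCWE-002, so this level varied widely within groups, and its part in the chemokine values was not tested. At 162 µg on day 28, 0 genes of any of these lists passed for either particle. The heart muscle median was then 0.08 after NRCWE-001 and 1.65 after NRCWE-002, where all 8 markers were above vehicle, and their mean level was 1.69 to 3.45 after NRCWE-002 against 0.37 to 2.27 in vehicle mice. The endothelial median was -0.39 after NRCWE-001, with 0 of 8 markers above vehicle, and -0.19 after NRCWE-002. The part of these shifts in the day 28 chemokine values was not tested.

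With slide as a fixed block, when 4.11% of all genes passed for 162 µg of NRCWE-001 on day 1, the counts for this particle rose to 9 of 20 neutrophil markers, 5 of 15 NF-kB genes, 5 of 19 upstream genes, 5 of 9 macrophage CC chemokines, 3 of 12 other CXC genes and 2 of 5 CCR2-axis chemokines. For NRCWE-002, when 1.96% of all genes passed, they were 2, 2, 2, 1, 0 and 0. The other lists kept the counts given above under this block.

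**Figure D4:**
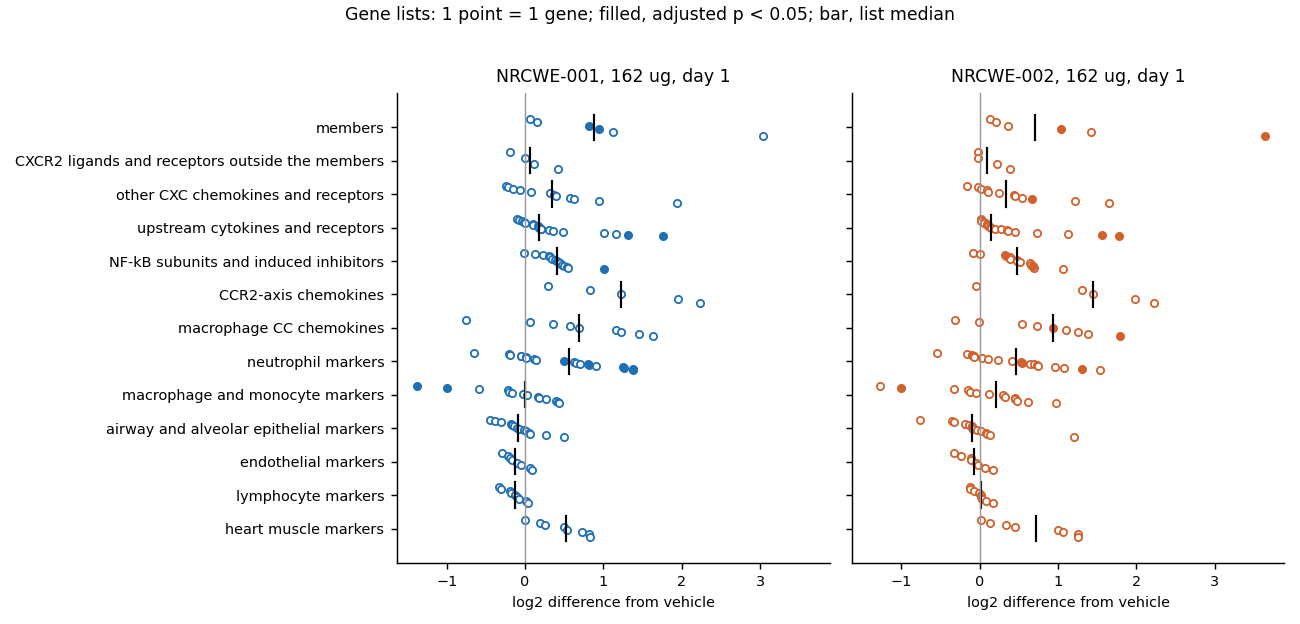
Difference from vehicle at 162 µg on day 1, in log2 units, for every tested gene of each list, for NRCWE-001 and NRCWE-002; filled points passed the test and bars are list medians. The medians of the 6 members, Cxcr2 included, are 0.88 and 0.70 and those of the 20 neutrophil markers 0.56 and 0.47.

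The genes whose ratios followed each member most closely over the 69 arrays are given as a description, since all arrays share their reference RNA and their dose groups. For Cxcl5 they were Noxo1 (Pearson r 0.94, Spearman rho 0.82), Lcn2 (0.91, 0.74) and Vnn1 (0.90, 0.69). Noxo1 organises an NADPH oxidase, Lcn2 encodes the iron-siderophore binding protein lipocalin 2 and Vnn1 a pantetheinase. With group means removed the r values were 0.90, 0.86 and 0.84, so these genes also followed Cxcl5 from mouse to mouse within groups. The values of Cxcl5 lie in a low set near vehicle and a high set, and r reflects in part the distance between them. For Cxcl3 they were Sod2 (0.89, 0.76), the mitochondrial superoxide dismutase, Cxcl5 (0.89, 0.75) and Tnfrsf9 (0.88, 0.77).

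For Cxcr2 the closest was Csf3r (0.86, 0.82), ahead of Cstdc4 (0.81, 0.68) and Tnfsf14 (0.77, 0.65). Cxcl15 was followed by Cdh1 (0.90, 0.77), which encodes epithelial cadherin, Trpv6 (0.89, 0.78) and 2210016F16Rik (0.88, 0.79). Cxcl1 was followed by Gins1 (0.85, 0.82), Hells (0.81, 0.84) and Sdad1 (0.81, 0.84), of which Gins1 and Hells act in DNA replication and chromatin. Like Cxcl1 these 3 had mean log2 ratios well below 0 (-2.82, -2.71 and -1.42). Cxcl2 had no close partner, with S100a11 (0.66, 0.59), Sec11c (0.66, 0.52) and Coq7 (0.65, 0.54) at the top. Between members, r was 0.69 for Cxcl1 with Cxcl5, 0.66 for Cxcl1 with Cxcl3, 0.61 for Cxcl3 with Cxcr2 and 0.59 for Cxcl5 with Cxcr2.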

How the data were processed

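The deposited series table held log2 ratios of sample (Cy5) to reference (Cy3), made by the authors with a LOWESS normalization of each array. Set against log ratios computed here from the scanner output, they ran in the same direction on every array, with r from 0.988 to 0.995. The authors' deposited scanner files (Agilent Feature Extraction 11.0.1.1) gave spot intensity and local background, with 0 saturated spots. Dyes were not swapped, so the size of a ratio is open to dye bias. Intensities served for brightness, bounds and alternatives. The lower bounds compare brightness after scaling of the arrays.

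Of 41174 probes, 27479 matched a symbol through RefSeq accessions (GRCm38.p6), and the array annotation followed mm9. Probes well above background on at least 4 of 69 arrays were kept (36469), and a gene was the median over its probes (17639 genes). A single fit of 14 group means was made with limma 3.58.1 in R 4.3.3, with Benjamini-Hochberg adjustment over all genes within each comparison. The fit was tested on simulated data. Replicate numbers follow accession order and name mice only. Alternatives covered normalization, filters, probe summary, slide and scan day, the arrays in the fit and leaving out each array. Leaving out the brightest scan day was added after seeing the data. The named genes were the 6 members, up to 4 genes of each list with the largest change among those that passed at 162 µg on day 1, and the 3 genes most correlated with each member. Trem1, which also passed, fell outside this rule. The members and lists were chosen with earlier results of these data known. The number of arrays limits the precision.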

Additional observations from a re-analysis of the deposited data

Results flagged for a closer look

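In 84 groups of a gene, particle, dose and day, 3 held a mouse that stood far from the others, and chance alone marks about 1 in 20 groups. Cxcl5 in replicate 5 of 162 µg NRCWE-001 on day 1 was -3.85, against -0.11 to 1.40 in the other 4 mice. Cxcl1 was -3.20 in replicate 5 of 18 µg NRCWE-001 on day 1, with the other mice between -4.66 and -4.26, and -2.20 in replicate 3 of 18 µg NRCWE-001 on day 28, with the others between -4.42 and -3.79. Both of these Cxcl1 arrays were among the 7 of the scan day on which more probes were well above background.

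Differences between groups under the same comparison appeared for Cxcl2 alone. Averaged over doses on day 28 it was lower after NRCWE-002 than after NRCWE-001, by -0.19 on the log2 scale. At 18 µg of NRCWE-001, all mice lay above the vehicle mean on day 28 and all lay below it on day 1. Between the differences from vehicle of these days lay 0.25, which was not tested. The probe was close to background here, well above it on 1 of 5 arrays of each of these groups and on 0 vehicle arrays. The share of all genes with such a pattern was not counted.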

How the results depend on the processing

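Of 1684 differences of members recomputed under another setting, 1657 stayed on their side of the threshold, 10 lost a call, 17 gained one and 0 called differences reversed; 167 differences changed sign without passing. At 162 µg of NRCWE-001 on day 1, 2 members passed as reported, 4 with slide as a fixed or random block or with scan day as a block, and 1 on normexp-corrected scanner signals; leaving out 1 array gave 0 to 3. At 162 µg of NRCWE-002 on day 1, 2 passed as reported, 4 with scan day as a block and 1 with slide as a fixed block. With the filter on every array of a group 1 passed. That filter removed Cxcl2 and Cxcl3, so these genes were not tested under it. Leaving out 1 array gave 0 to 2. At 54 µg of NRCWE-002, 0 passed as reported, 1 with scan day as a block and 2 with slide as a fixed or random block. In the F-test of NRCWE-001 on day 1, 3 passed as reported, 5 with slide as a random block, 1 by an ordinary F-test and 1 on scanner signals (0 to 3 with 1 array left out). For NRCWE-002 on day 1, 2 passed, 4 with scan day as a block and 1 with the stricter filter, where Cxcl3 was not tested (0 to 2). For NRCWE-001 on day 28, 0 passed, 1 with slide as a random block (0 to 2), and at 162 µg 0 to 1. For the F-tests under other settings no share of all genes is given. With blocks more genes passed against vehicle in general, so these F-test counts cannot be read as a result about the members. The Cxcl2 difference between particles on day 28 was called as reported. It fell from 1 to 0 members with arrays of the same day, processed or normexp-corrected signals, scan day, and slide as a fixed or random block (0 to 1 with 1 array left out). With the stricter filter Cxcl2 was not tested. The causes were not tested. No paired analysis was possible because the labels give no replicate numbers that tie mice of different groups; arrays were matched by slide instead. Probes close to background limit Cxcl2, Cxcl3 and Cxcl5 in low groups to upper bounds.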
